A study of Mus musculus with 4 samples.

Results

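Primitive endoderm is the extraembryonic layer that lines the inner cell mass of the mouse blastocyst and later forms the yolk sac endoderm. The transcripts of 9 genes that mark this layer were followed in mouse embryonic stem cells (mESCs), out of 53379 genes quantified. They were *Gata4*, *Gata6*, *Sox7*, *Sox17*, *Pdgfra*, *Foxa2*, *Hnf4a*, *Dab2* and *Foxq1*, matched by exact symbol. These genes had been picked because their transcripts were already known to be lower at PD800 in these same libraries, so the difference between the groups is given for them as a description, with a standard error or a counting interval and with no p-value. By product, 7 of the 9 encode transcription factors, *Pdgfra* encodes a receptor, and *Dab2* encodes an endocytic adaptor that is neither.

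All cells were of DKO741, a single Terc-/- line made from E14 mESCs by targeting both alleles of *Terc*, the gene for the RNA template of telomerase. RNA was sequenced at population doubling 100 (PD100, n = 2), when the telomeres inherited from the parental cells were still long, and at population doubling 800 (PD800, n = 2), when the cells had survived telomere loss by a telomerase-independent route, alternative lengthening of telomeres. Both groups lacked *Terc*, no Terc+/+ library was analysed here, and the later cells descended from survivors that arose rarely in this line, so that time in culture, survival of the crisis and any clonal change cannot be told apart. Feeder fibroblasts were used to maintain the line, and the labels state that feeder-free cells were harvested. The replicates were described as biological duplicates, with nothing further on how they were separated.

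The libraries held between 32454121 and 38492149 expected counts (fragments assigned to genes by RSEM), and 3 counts corresponded to 0.0743 to 0.0934 CPM (counts relative to library size, scaled by the TMM factors of edgeR). *Terc* had 1 count in PD100 replicate 1 and 0 counts in the other 3 libraries. The embryonic stem cell markers were abundant in each library, with *Pou5f1* at 305.5 and 295.7 TPM, a level corrected for transcript length, at PD100 and 325.4 and 324.6 TPM at PD800. Among 19148 genes tested with edgeR, the median log2 fold change between PD800 and PD100 was 0.01.

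In the blastocyst, cells of the inner cell mass first express both NANOG and GATA6, and FGF4 from the future epiblast acts through FGF receptors and ERK to fix the GATA6 state in the neighbouring cells. GATA6 is followed by PDGFRA, SOX17, GATA4 and SOX7, and the resulting cells sort to the surface and lay down basement membrane. Cultures of mESCs are known to contain a small, reversible fraction of cells that express such genes, and forced GATA factor expression turns mESCs into endoderm-like cells.

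The GATA factors bind short sites around the letters GATA. Promoter windows of some of the 9 genes were read for the words AGATAA and TGATAA on either strand. RefSeq windows of 250 bases before to 50 bases after an annotated start (GRCm38.p6, the assembly that mm10 names) were available for 4 of the 9 genes, with 8 windows in all. A word was present in 1 window each of *Foxa2*, *Hnf4a* and *Dab2*, and in 18.6% of 32851 windows of all genes. The 3 windows are shown because they hold such a word, each 5′ to 3′ on the strand of the gene with the words in capitals.
*Foxa2*, chr2:148045415-148045714, minus strand: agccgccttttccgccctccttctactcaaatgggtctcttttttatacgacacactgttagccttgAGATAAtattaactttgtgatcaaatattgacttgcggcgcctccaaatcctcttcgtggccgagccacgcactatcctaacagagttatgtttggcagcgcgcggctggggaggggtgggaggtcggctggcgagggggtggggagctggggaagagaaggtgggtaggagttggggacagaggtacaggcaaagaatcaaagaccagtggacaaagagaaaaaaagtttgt
*Hnf4a*, chr2:163506607-163506906, plus strand: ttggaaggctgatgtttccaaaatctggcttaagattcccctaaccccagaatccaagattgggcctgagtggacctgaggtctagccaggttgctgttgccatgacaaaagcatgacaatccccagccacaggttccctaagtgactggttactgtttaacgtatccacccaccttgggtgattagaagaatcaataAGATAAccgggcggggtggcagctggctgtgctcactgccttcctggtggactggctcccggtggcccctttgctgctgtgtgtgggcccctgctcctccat
*Dab2*, chr15:6299539-6299838, plus strand: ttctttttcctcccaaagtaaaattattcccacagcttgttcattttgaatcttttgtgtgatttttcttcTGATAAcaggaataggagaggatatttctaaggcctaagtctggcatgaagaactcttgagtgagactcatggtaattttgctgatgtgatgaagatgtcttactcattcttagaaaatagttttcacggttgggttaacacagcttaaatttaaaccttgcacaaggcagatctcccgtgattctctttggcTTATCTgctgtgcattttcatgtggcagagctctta
Counted from the start, AGATAA began at -183 in *Foxa2* and at -52 in *Hnf4a*. In *Dab2*, TGATAA began at -179 and TTATCT, the reverse complement of AGATAA, at 14. This *Foxa2* start lies inside the gene and not at its 5′ end. The other windows of *Foxa2*, *Hnf4a*, *Dab2* and *Pdgfra* held no such word, and no window of the 4 genes held ACAATG or ACAATA, words bound by SOX factors and present in 19.7% of all windows on either strand. A forkhead word, ATAAACA or GTAAACA, was found in 7.97% of all windows and in the other *Dab2* window, where ATAAACA began at -61. These are matches of letters in short windows, and occupancy was not measured.

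The transcripts of all 9 genes were lower at PD800 in each library than in either PD100 library. The call rule for all genes asked for a fold change over 2 and for an edgeR quasi-likelihood p, after adjustment, under 0.01. By it, 8.81% of all tested genes were lower. By the estimate alone, 9 of 9 were lower by over 4-fold, beside 4.33% of all tested genes. Both PD800 libraries lay below both PD100 libraries in CPM for 36.3% of all tested genes. Since the genes were chosen on this contrast, nothing is read from these counts. The log2 fold changes ran from -7.27 (*Foxa2*) to -2.88 (*Gata4*), with a median of -4.17. In this bulk RNA, fewer cells of a type and less RNA per cell cannot be told apart.

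**Figure D1:**
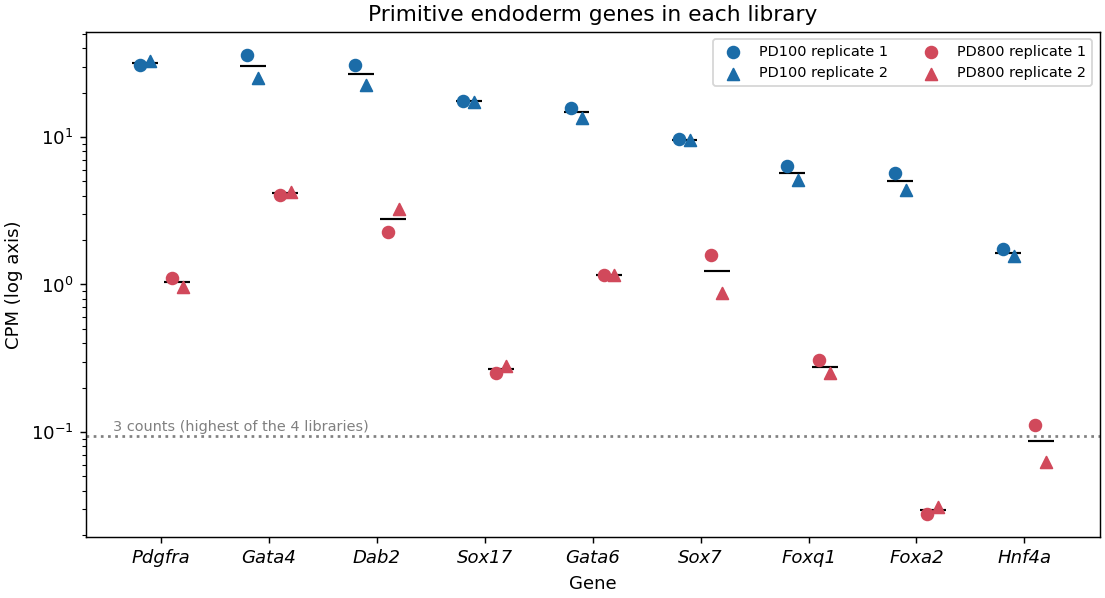
CPM of the 9 genes (log axis) in each of the 4 libraries, with PD100 in blue, PD800 in red, circles for replicate 1, triangles for replicate 2 and black lines for group means; the dotted line marks 3 counts in the library where that is highest. Every red point lies below both blue points of its gene, and the *Foxa2* points at PD800 (0.0278 and 0.0311 CPM) lie below the dotted line.

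GATA4 and GATA6 are zinc finger transcription factors, and GATA6 is the earliest of the 9 products in the lineage. *Gata6* (ENSMUSG00000005836.8, chromosome 18) had 638 and 453 expected counts at PD100 and 42 and 37 at PD800, or 15.8 and 13.6 CPM against 1.17 and 1.15 CPM. Both PD800 libraries were close to each other and far below the PD100 libraries. The group means were 14.7 ± 1.58 and 1.16 ± 0.0120 CPM (SD, n = 2), and the log2 fold change was -3.66 (SE 0.15). Here and below, the SE was derived from the edgeR F statistic of the same contrast. At low counts it can fall below counting error. In counts scaled for library size, 7.84% of the PD100 level was left (95% exact interval 6.16 to 9.86%), an interval that, like the others of this kind below, covers counting error only.

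*Gata4* (ENSMUSG00000021944.15, chr14:63198922-63271692 of GRCm38, minus strand) is known to act downstream of *Gata6* in endoderm and also in the heart. It had 1451 and 842 expected counts at PD100 and 146 and 136 at PD800, which gave 35.9 and 25.2 CPM against 4.06 and 4.23 CPM. The PD100 libraries differed 1.42-fold from each other, the widest replicate gap at PD100 among the 9 genes, and yet lay well above the PD800 libraries. Its log2 fold change was -2.88 (SE 0.19), close to that of *Sox7* (-2.94, SE 0.25), with 13.3% of the PD100 level left (11.7 to 15.1%). At PD800, *Gata4* was the most abundant of the 9 transcripts per length, at 0.84 and 0.88 TPM.

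SOX7 and SOX17 are SOXF transcription factors, known from primitive endoderm and from endothelium, with SOX17 also needed for definitive endoderm. *Sox17* (ENSMUSG00000025902.13, chr1:4490931-4497354, minus strand) had 711.07 and 581 expected counts at PD100 and 9 in each PD800 library. The PD100 libraries were nearly equal at 17.6 and 17.4 CPM, and the PD800 libraries stood at 0.250 and 0.280 CPM. The log2 fold change was -6.03 (SE 0.15), and 1.51% of the PD100 level was left (0.892 to 2.39%). With 9 counts in each PD800 library, this SE is narrower than the counting interval implies. A fractional count such as 711.07 means that RSEM shared reads with another feature, and *Sox17* was the exception to whole counts among the 9 genes.

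*Sox7* (ENSMUSG00000063060.6, chr14:63943673-63950732, plus strand) kept a larger part of its level than *Sox17*. It had 389 and 317 expected counts at PD100 and 57 and 28 at PD800, or 9.64 and 9.50 CPM against 1.59 and 0.871 CPM. The PD800 libraries differed 1.82-fold from each other, the widest replicate gap among the 9 genes, without reaching the PD100 level. The log2 fold change was -2.94 (SE 0.25), with 13.0% left (10.3 to 16.4%), an interval that does not meet that of *Sox17*.

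FOXA2 and HNF4A are factors of visceral endoderm and later of liver and gut, where FOXA2 opens chromatin as a pioneer factor and HNF4A, a nuclear receptor, drives genes for secreted carriers. *Foxa2* (ENSMUSG00000037025.11, chr2:148042877-148046969, minus strand) had 230 and 147 expected counts at PD100 and 1 count in each PD800 library. With 5.70 and 4.40 CPM at PD100 and 0.0278 and 0.0311 CPM at PD800, the level was 174-fold lower, with a counting interval of 47.8 to 1442. The fitted log2 fold change of -7.27 (SE 0.38) depends on the prior count at such levels.

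*Hnf4a* (ENSMUSG00000017950.16, chr2:163506808-163572910, plus strand) was the least abundant of the 9 genes at PD100. It had 70 and 52 expected counts at PD100 and 4 and 2 at PD800, or 1.73 and 1.56 CPM against 0.111 and 0.0622 CPM. The groups were far apart, although 1 PD800 library was below the level of 3 counts. The log2 fold change was -4.17 (SE 0.36), and 5.33% was left (1.92 to 11.9%).

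FOXQ1 is a forkhead factor best known from hair and stomach epithelium. *Foxq1* (ENSMUSG00000038415.10, chr13:31556134-31560976, plus strand) had 255 and 172 expected counts at PD100 and 11 and 8 at PD800, which gave 6.32 and 5.15 CPM against 0.306 and 0.249 CPM. Replicate 1 was the higher library in both groups, by a margin far smaller than the distance between the groups. The log2 fold change was -4.35 (SE 0.25), with 4.82% left (2.87 to 7.62%).

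PDGFRA is the receptor tyrosine kinase for PDGF-A and an early surface marker of primitive endoderm, and it is also abundant in fibroblasts. *Pdgfra* (ENSMUSG00000029231.15, chr5:75152292-75198215, plus strand) had 1241 and 1104 expected counts at PD100 and 40 and 31 at PD800, or 30.7 and 33.1 CPM against 1.11 and 0.965 CPM. It was the exception among the 9 genes in being lower in PD100 replicate 1 than in replicate 2. The group means were 31.9 ± 1.65 and 1.04 ± 0.105 CPM (SD, n = 2), the log2 fold change was -4.93 (SE 0.12), and 3.28% was left (2.55 to 4.15%).

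DAB2 is a clathrin adaptor for receptors of the LDL receptor family and is needed for endocytosis and surface positioning in the endoderm layer. *Dab2* (ENSMUSG00000022150.16, chr15:6299788-6440712, plus strand) had 1246 and 748 expected counts at PD100 and 81 and 105 at PD800, or 30.9 and 22.4 CPM against 2.25 and 3.27 CPM. Replicate 1 was the higher library at PD100 and the lower at PD800. The log2 fold change was -3.28 (SE 0.23), with 10.1% left (8.65 to 11.7%).

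Summed over the 9 genes, the level per length was 43.2 and 34.3 TPM at PD100 and 2.32 and 2.19 TPM at PD800. PD100 replicate 1 was above replicate 2 for 8 of the 9 genes, with CPM ratios of 0.929 (*Pdgfra*) to 1.42 (*Gata4*). At PD800, replicate 1 was the higher library for 5 of 9. The genes therefore did not rank the PD800 libraries alike.

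Order of levels can be compared between genes only per length. In TPM at PD100, *Sox17* (9.36 and 9.56), *Gata4* (10.5 and 6.54) and *Dab2* (7.97 and 5.96) came first, and neighbours in this order overlapped between libraries. *Pdgfra* (4.83 and 4.24), *Gata6* (4.06 and 3.14) and *Sox7* (2.39 and 2.12) followed without overlap, *Foxa2* (2.4 and 1.66) overlapped *Sox7*, and *Foxq1* (1.05 and 0.77) and *Hnf4a* (0.66 and 0.34) were the lowest. At PD800 the order was different, since *Sox17* went from rank 1 to rank 5 and *Sox7* from rank 6 to rank 3.

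In TPM at PD800, *Gata4* stood first and *Dab2* (0.51 and 0.66) second, without overlap. *Sox7* (0.33 and 0.17) overlapped *Gata6* (0.25 and 0.23), and *Sox17* (0.16 and 0.11) overlapped *Pdgfra* (0.14 and 0.09). *Foxq1* (0.04 and 0.03), *Foxa2* (0.03 and 0.01) and *Hnf4a* (0.02 and 0.01) were last, each on 11 counts or fewer per library, too few to order them. TPM also depends on the transcript length that RSEM assigned, which for *Gata4* was 2829 and 2864 bases at PD100 and 3285 and 3073 at PD800, and was the same in every library for *Gata6*, *Sox7* and *Foxq1*.

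**Figure D2:**
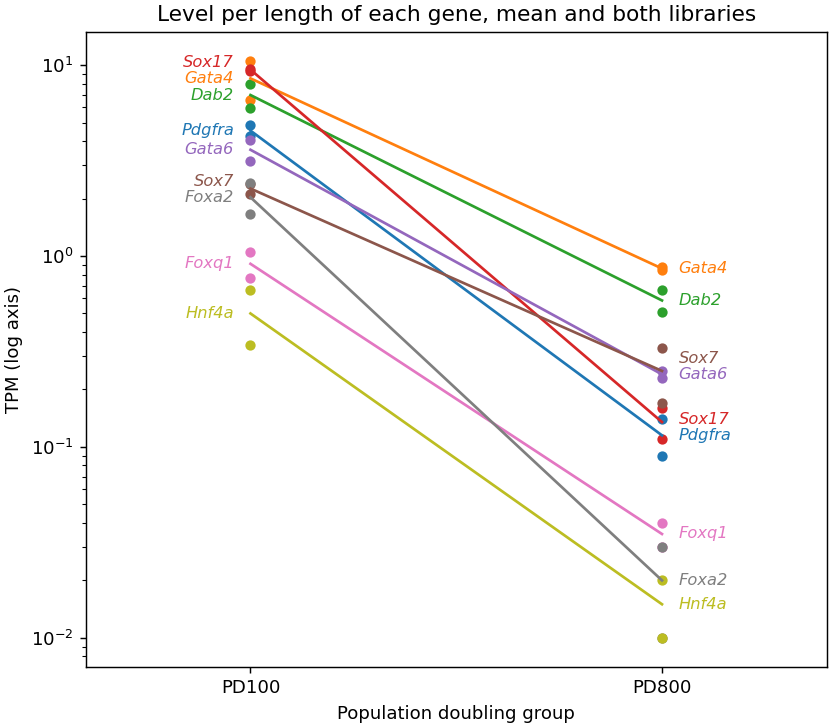
TPM of each gene (log axis) at PD100 and PD800, with points for the 2 libraries of each group and a line joining the group means. All lines go down, and the steeper lines of *Sox17* and *Pdgfra* cross those of *Gata6* and *Sox7*.

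The profile over the 4 libraries was compared with that of every other tested gene, as log2(CPM + 0.5) centred on each gene's mean. The 5 genes nearest to the mean profile of the 9 were *Ets1*, *Adamts1*, *Msln*, *Cxcl16* and *Grb10*, with Euclidean distances of 0.0672, 0.0935, 0.128, 0.142 and 0.154 over 4 libraries. Among the 9 themselves, the distance went from 0.0235 for *Gata6* to 1.37 for *Sox17*. *Ets1*, for a transcription factor of blood and vessel cells, stood at 14.1 and 12.9 CPM at PD100 and 1.00 and 0.965 CPM at PD800. This is a description over 4 libraries, which fall into 2 groups.

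The 9 genes lie on 7 chromosomes, with *Gata4* and *Sox7* 672 kb apart on chromosome 14 and *Foxa2* and *Hnf4a* on chromosome 2. Each was set beside its 40 nearest tested genes. The medians of these neighbours were between -0.26 (*Gata4* and *Sox7*) and 0.25 (*Pdgfra* and *Foxa2*) in log2 fold change, as a description of the surroundings of genes that were themselves chosen for being lower.

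Within the neighbourhoods, between 2 and 11 of 40 genes were called lower and between 0 and 4 higher, beside 8.81% lower and 6.28% higher among all tested genes. *Gata4* and *Sox7* are among the lower neighbours of each other. *Foxq1* had the most lower neighbours, with 11, and the other genes 2 to 6. Those of *Foxq1* included the forkhead gene *Foxf2* (25 and 15 counts at PD100, 2 and 2 at PD800) and *Irf4* (126 and 117, then 3 and 1). On chromosome 5, *Pdgfra* lies 377 kb from *Kit* and *Kit* 276 kb from *Kdr*, related receptor genes in a row. *Kit* was called higher and *Kdr* lower, so genes of this row went in opposite directions.

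Some lower neighbours were directly beside a member. At *Foxa2*, the noncoding gene 9030622O22Rik, whose start lies within 0.01 Mb, had 14 and 16 counts at PD100 and 0 in both PD800 libraries. At *Gata6*, the antisense transcript 1010001N08Rik overlaps the 5′ end and had 24 and 15 counts at PD100 and 1 and 0 at PD800. The antisense Gm37587 at *Sox17* had 8.93 and 5 counts at PD100 and 0 at PD800, and Hnf4aos had 2 counts in PD800 replicate 2 and 0 elsewhere. Other genes annotated across the 9 were at 0 in the 4 libraries. The strand setting of the counting is not given in the sources used here, so reads of a gene and its antisense partner may not have been kept apart, but these partners held few counts.

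**Figure D3:**
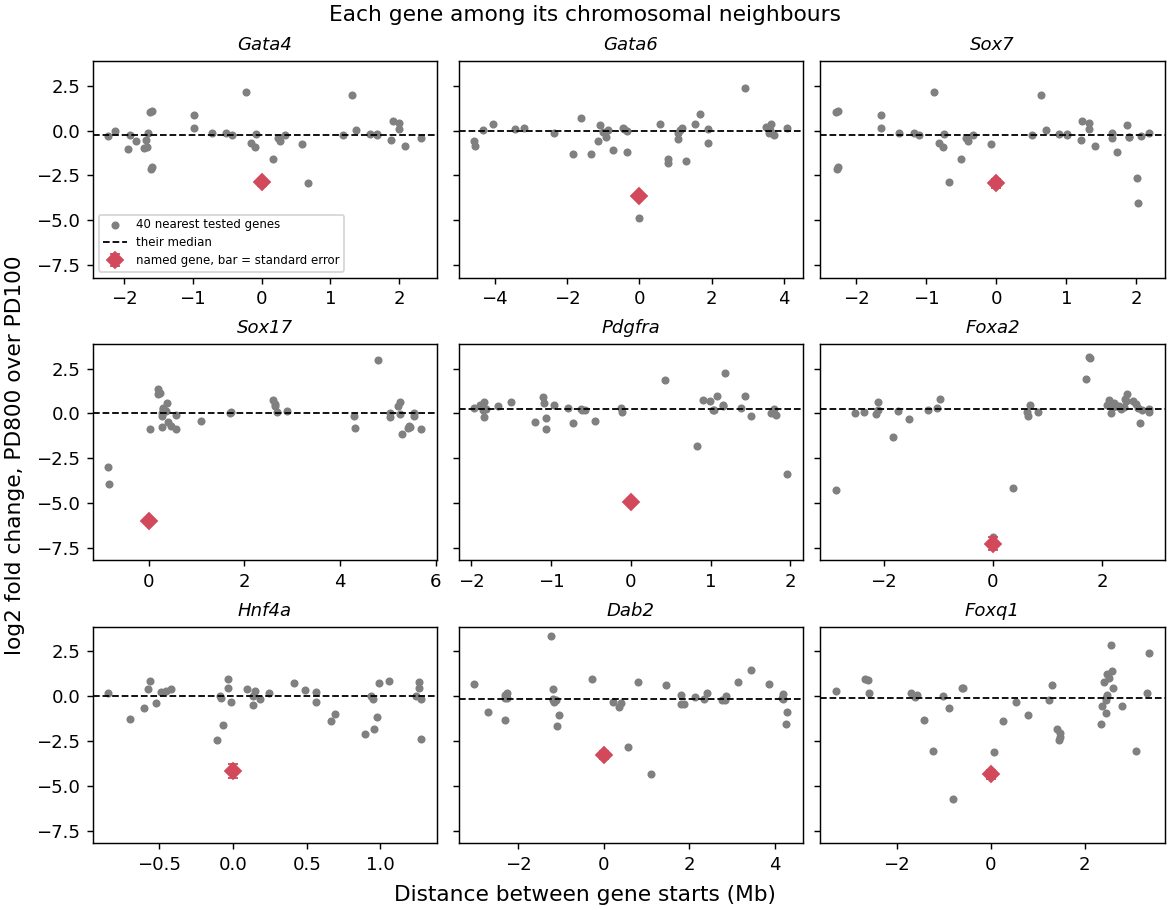
Log2 fold change (PD800 over PD100) of each gene (red diamond) and of its 40 nearest tested genes (grey points). The horizontal axis is the distance between gene starts in Mb. Bars show the standard error derived from the edgeR F statistic, and the neighbours' median is dashed. The medians lie between -0.26 and 0.25, and the diamonds, of genes chosen for being lower, between -7.27 and -2.88.

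Other regulators of primitive and visceral endoderm were examined as a list of 15 genes, 13 of them tested. This list and those that follow were chosen with earlier results of these data known. In edgeR, 8 were called lower and 1 higher, and the median log2 fold change was -1.35, against 0.01 for all tested genes, of which 8.81% were lower and 6.28% higher. *Runx1*, for a factor best known from blood stem cells, fell by 3.20 on the log2 scale (SE 0.22, edgeR adjusted p = 0.000185). *Snai1*, a repressor of E-cadherin in migrating cells, also fell (-2.41), as did *Prdm1* (-1.64) and *Otx2* (-1.35), the last a factor of both anterior visceral endoderm and primed epiblast. *Hhex* and *Foxa3* were not called, at -0.61 and -0.42. Without PD800 replicate 1, 5 of the list were called lower.

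*Foxa1*, the closest relative of *Foxa2*, went the other way. It had 3 and 1 counts at PD100 and 15 and 13 at PD800, a PD800 level of 758% of that at PD100 (counting interval 265 to 2975%, edgeR adjusted p = 0.00693). Both groups were far below the 230 and 147 counts of *Foxa2* at PD100. Its call was lost when PD100 replicate 2 or either PD800 library was left out.

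Family relatives of the 9 genes were mostly low. Of 9 relatives, 7 were tested, 1 was called higher (*Foxa1*, background 6.28%) and 1 lower (background 8.81%), *Sox18*, the third SOXF gene, with 59 and 30 counts at PD100 and 4 and 0 at PD800. *Gata1*, *Gata2* and *Gata3*, which act in blood and trophoblast, were not called, at -0.32, -1.01 and -0.62. *Gata5* had at most 2 counts in any library and *Hnf4g* none. *Dab1*, the neuronal relative of *Dab2*, was at 9.61 and 9.92 CPM at PD100 and 13.9 and 13.7 CPM at PD800, which did not pass the fold threshold.

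Products made by the endoderm layer were a list of 24 genes for basement membrane, endocytic receptors, secreted carriers and surface proteins, with 21 tested. Of these, 16 were called lower and 0 higher by edgeR, beside 8.81% lower and 6.28% higher among all tested genes, and the median was -2.76. Since earlier results were known when the list was made, these counts are a description. *Col4a1* and *Col4a2*, for the type IV collagen chains of basement membrane, fell, with log2 fold changes of -4.42 and -4.86, and so did the laminin gene *Lama1* (-2.76). *Cubn*, an endocytic receptor whose uptake uses DAB2, fell by 4.46 on the same scale, while *Lrp2*, its partner receptor, fell by 1.27.

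The keratin genes *Krt8* (-4.35) and *Krt18* (-5.02) and *Plat* (-4.94), for tissue plasminogen activator, were called lower too. Other genes of the list were not called: *Nid2*, a basement membrane linker, was at -0.07 (SE 0.07, edgeR adjusted p = 0.491) and *Apob* at 0.76 (adjusted p = 0.0473 in edgeR). *Ttr* and *Afp*, abundant carriers of mature visceral endoderm, each had 3 and 4 counts at PD100 and 0 at PD800. These carriers were near or under the level of 3 counts in both groups, whereas *Apob*, for a lipid carrier, had 157 and 87 counts at PD100 and 226 and 152 at PD800. Leaving out PD100 replicate 1 gave 1 higher call in this list.

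**Figure D4:**
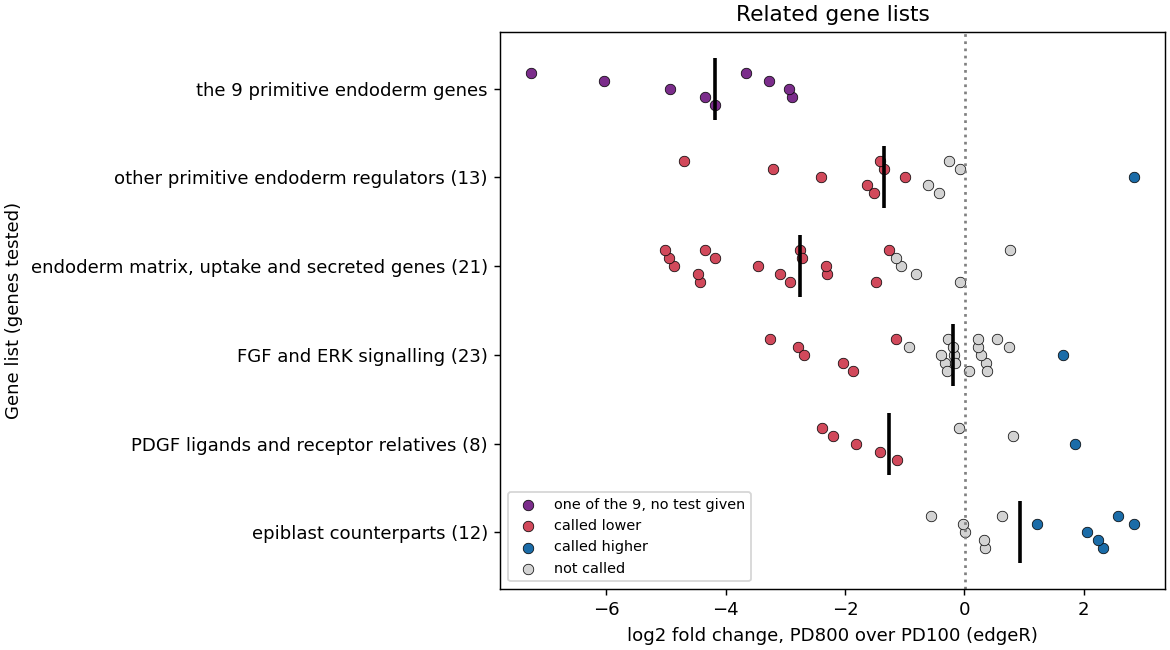
Log2 fold change (PD800 over PD100, edgeR) of the 9 genes in purple and of the tested genes of 5 related lists, coloured by call, with a black bar at each list's median and a dotted line at the median of all tested genes. The 9 genes and the endoderm products lie mostly to the left, the epiblast counterparts to the right, and the FGF and ERK genes around the dotted line.

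The FGF and ERK pathway, which instructs primitive endoderm, was represented by 24 genes, 23 tested, with 1 called higher, 6 lower and a median of -0.20, beside 6.28% higher, 8.81% lower and a median of 0.01 among all tested genes. The ligand gene *Fgf4* was the higher one, at 75.2 and 80.5 CPM at PD100 and 242 and 249 CPM at PD800, a log2 fold change of 1.66 (SE 0.08, edgeR adjusted p = 6.95e-05). The receptors *Fgfr1* (-0.32) and *Fgfr2* (-0.18), which carry the signal in the inner cell mass, were not called. *Fgfr3* (-2.03) and *Fgfr4* (-2.78) were called lower.

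Downstream, *Dusp4*, a phosphatase that limits ERK, fell by 3.26 on the log2 scale, and the immediate early gene *Egr1* fell by 2.69. The exchange factor gene *Sos1* fell by 1.15, and *Fgf5*, a primed epiblast ligand, fell by 1.86. The other 16 of the 23 genes were not called, including *Dusp6* at 0.54 and *Etv4* at -0.93, both targets of ERK. Protein phosphorylation was not measured.

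The ligands of PDGFRA and its receptor relatives were a list of 9 genes, 8 tested, with 5 called lower, 1 higher and a median of -1.27, where 8.81% of all tested genes were lower and 6.28% higher. *Pdgfa*, for the main ligand of PDGFRA in the embryo, was at 22.8 and 25.2 CPM at PD100 and 41.4 and 43.3 CPM at PD800. Its log2 fold change of 0.82 (SE 0.09, edgeR adjusted p = 0.000789) passed the p threshold and not the fold threshold. *Pdgfb* (-2.38), *Pdgfc* (-1.13) and *Pdgfd* (-1.41), the other ligand genes, were called lower.

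Among the receptors, *Pdgfrb* was at -0.08 (SE 0.15, edgeR adjusted p = 0.679), in contrast to the -4.93 of *Pdgfra*. *Kit*, its chromosomal neighbour and the receptor for stem cell factor, rose from 31.4 and 28.2 CPM to 112 and 103 CPM, a log2 fold change of 1.85. *Kdr* (-1.81) and *Csf1r* (-2.19), receptors of vessels and macrophages, were called lower. Without PD800 replicate 1, 3 of the list were called lower.

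NANOG and GATA6 exclude one another in the inner cell mass, and 12 factors of the epiblast or naive state were read as counterparts. Of these, 6 were called higher and 0 lower by edgeR, against shares of 6.28% and 8.81% of all tested genes, and the median was 0.92. These were *Klf4* (log2 fold change 2.84), *Prdm14* (2.57), *Nanog* (2.32), *Tbx3* (2.23), *Esrrb* (2.06) and *Tfcp2l1* (1.22). *Pou5f1* (0.35), *Sox2* (0.63), *Klf5* (0.02) and *Sall4* (-0.02) were not called, and *Klf2* was at -0.56. *Tbx3* is also known from primitive endoderm, and its direction was opposite to that of the 9 genes.

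Several of the 9 genes are expressed in other cell types, whose markers were summed per library and whose calls stand beside the same background of 8.81% lower and 6.28% higher. Fibroblast markers, shared with *Pdgfra*, were at 71.3 and 95.9 CPM at PD100 and 30.2 and 30.7 CPM at PD800, with 6 of 11 tested called lower. *Col1a1* had 526 and 815 counts at PD100 and 70 and 81 at PD800. Among the 5 not called were *Twist1*, *Pdgfrb*, *Fbn1* and *Postn*, with log2 fold changes of 0.34, -0.08, -0.56 and -0.80. *Lum* was at 0 in 3 libraries and at 1 count in PD800 replicate 2, and *Dcn* had 23 and 13 counts at PD100 and 6 and 0 at PD800. The part of such cells in the *Pdgfra* values was not tested.

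Mesendoderm markers, which share *Sox17*, *Foxa2*, *Gata4* and *Gata6*, were at 5.95 and 4.61 CPM at PD100 and 13.1 and 10.9 CPM at PD800. Of 5 tested, 2 were called higher (*Gsc* and *Eomes*) and 0 lower, and *Eomes* alone went from 2.25 and 2.01 CPM to 9.32 and 7.53 CPM. The streak markers *T* (37 and 14 counts at PD100, 10 and 13 at PD800) and *Mixl1* (28 and 14, then 14 and 7) were not called, *Mesp1* and *Evx1* were too low to be tested, and *Cer1* was at 0 in all libraries. Endothelial markers, shared with *Sox7* and *Sox17*, stood at 90.3 and 81.5 CPM at PD100 and 95.1 and 89.6 CPM at PD800, mostly from *Pecam1*, which mESCs express. Of the 6 tested, 3 were called lower (*Kdr*, *Cdh5* and *Sox18*), and *Emcn* was at 0 throughout.

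Cardiac markers, shared with *Gata4* and *Gata6*, summed to 22.6 and 23.0 CPM at PD100 and 9.96 and 9.62 CPM at PD800, with 2 of 4 tested called lower (*Tbx20* and *Myh6*). The defining heart factors *Nkx2-5* and *Tbx5* had at most 11 and 2 counts in any library. Trophoblast markers went from 52.4 and 55.8 CPM to 43.4 and 41.2 CPM, with 3 of 7 tested called lower, among them *Krt7* and *Hand1*, and 1 higher (*Eomes*). *Tpbpa* had 1 count in PD800 replicate 1 and 0 elsewhere, and *Elf5* at most 9 counts. The part of these cell types in the values of the 9 genes was not tested.

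Embryonic stem cell markers, of the labelled cell type, were at 2400 and 2723 CPM at PD100 and 3537 and 3665 CPM at PD800, with 1 of 10 called higher (*Nanog*) and 0 lower in edgeR. Both groups thus carried the stem cell transcripts. The endoderm products of the list above summed to 5256 and 5748 CPM at PD100 and 948 and 955 CPM at PD800, and the 9 genes to 154 and 132 CPM at PD100 and 10.9 and 11.1 CPM at PD800, sums that do not correct for transcript length.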

How the data were processed

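RNA of 4 libraries of DKO741 mESCs was sequenced as paired reads. The authors aligned the reads to mm10 with STAR 2.5.3a and quantified genes with RSEM 1.3.0, and the submitters' notes also name DESeq2 1.18.1. The deposited values used were the expected count, TPM and transcript length per gene, not adjusted between libraries. FPKM was not used.

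The counts were rounded and entered into edgeR 4.0.16 (R 4.3.3). Genes passing filterByExpr at 10 counts, 19148 in all, were TMM-scaled and tested by quasi-likelihood, with p-values adjusted after Benjamini and Hochberg. Calls needed a fold change over 2 with adjusted p under 0.01. Standard errors of the fold changes were the absolute log2 fold change divided by the square root of the quasi-likelihood F. The script was tested on simulated counts. An exact permutation of 2 against 2 libraries cannot go below p = 0.333. Intervals on levels left are exact binomial intervals of the summed counts at 95%. *Foxa2*, with 1 count in each PD800 library, was given as a ratio with its interval. Gene positions came from GENCODE M21 (53274 of 53379 identifiers found).

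The 9 genes, the lists and the tests were chosen with earlier results of these data known. Named genes were the 9, genes of the lists (preferring called genes with the highest or lowest fold change and abundant ones), the 5 with the nearest profile, *Terc*, and neighbours or overlapping genes chosen after their values were seen. One gene of the regulator list is not reported here by name. Alternatives were other scalings, filters and thresholds, DESeq2 1.42.0, limma 3.58.1 on log2 TPM with pseudocounts of 1 and 0.1, a replicate block, and leaving out each library.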

Additional observations from a re-analysis of the deposited data

How the results depend on the processing

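All 104 values of the 9 genes under the alternatives kept their direction. Of these, 18 moved by more than the spread between replicates, 15 of them with limma on log2 TPM, where the pseudocount shrinks low genes by construction (with a pseudocount of 1, *Hnf4a* was at -0.56 and *Foxq1* at -0.88). Requiring 10 counts in every library left 5 of the 9 genes, since *Sox17*, *Foxa2*, *Hnf4a* and *Foxq1* had fewer in a PD800 library. On log2(TPM + 1), 7 of 9 were lower by over 2-fold.

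Over all genes, edgeR called 1202 higher and 1686 lower. limma on log2(TPM + 1) called 297 higher and 920 lower and moved the median of all genes to -0.12; with a pseudocount of 0.1 it called 533 higher and 1779 lower, with a median of -0.21. On log2(TPM + 1), lower calls were 1 among the other regulators, 3 in the FGF and ERK list and 1 in the PDGF list. The higher call among the other regulators (*Foxa1*) became 0 with both limma fits, with DESeq2 and with 10 counts required in every library.

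Leaving out 1 library gave 0 to 1 higher and 5 to 8 lower calls among the other regulators, 0 to 1 higher calls among the endoderm products and 3 to 5 lower calls in the PDGF list. Fewer libraries were fitted there, and a lone library was assumed to vary like the other group. By the labels, same-numbered replicates of PD100 and PD800 share only a number. Their deviations from the group means were correlated over the tested genes (0.349), and the main test did not include this pairing. With that number as a replicate block, 1461 genes were higher and 1956 lower, the 9 genes were unchanged in direction, and the endoderm products had 17 lower calls in place of 16.

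Depth limits *Foxa2* and *Hnf4a* at PD800, where 1 to 4 counts stand behind each value. Their standard errors, and that of *Sox17*, are narrower than their counting intervals imply.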
